A study of Homo sapiens and Mus musculus with 213 samples.

Results

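The long arm of human chromosome 6 ends in a segment of genes that share a location rather than a function. Here it was taken as the genes that start beyond 130 Mb on hg38 (GENCODE), average 10 or more normalized counts over 9 RNA-seq libraries and have symbols that do not begin with COL, LAM, KCN, CACN, RPL, RPS, SNHG or WNT. These were 216 genes of the 20884 that reached that level on all chromosomes, from L3MBTL3 at chr6:130013699-130141449 to PDCD2 at chr6:170575295-170584692. The table listed 630 genes of the segment, of which 413 had a read and 221 reached the level, and 5 of these were left out by their symbols. By type, the 216 members were 134 protein-coding genes, 45 pseudogenes, 30 lncRNA genes and 7 genes of small or unclassified RNAs. Members were chosen by this mean over all 9 libraries, and 215 of them had a mean of at least 10 within MYC WT, 208 within MYC MUT and 215 within SWP. The segment was proposed with results of these libraries known, so that counts and medians over its genes are descriptions.

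The study asked what a G-quadruplex (G4), a 4-stranded fold of guanine-rich DNA, does at the promoter of MYC. It edited HEK293T cells, an immortalized line from human embryonic kidney, by CRISPR. MYC WT cells had the natural G4 motif, MYC MUT cells had base changes in the G-runs that keep it from folding, and in SWP cells it was replaced by the G4 motif of another promoter. Each line had 3 RNA-seq libraries, with no treatment stated for any of them. Edited cells were sorted singly and clones with the edit on all copies were kept, and the sources used here do not say how many clones gave the RNA, so the edit and the history of a clone cannot be told apart. In the deposited tables the MYC WT library names carry a sequencing pool that the MYC MUT and SWP names do not carry, so pool and line cannot be told apart for MYC WT against either edited line.

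Reads on genes numbered 65024354 to 98497026 a library. MYC, the edited gene, had normalized counts of 20020.3, 28396 and 21580.1 in MYC WT, 10693, 11176 and 12399.8 in MYC MUT and 14480.1, 24743 and 25245 in SWP. Its log2 fold change was -1.02 ± 0.19 (SE, adjusted p = 0.00182) in MYC MUT against MYC WT and -0.15 ± 0.19 (SE, adjusted p = 0.712) in SWP against MYC WT. Of markers of HEK293 cells, VIM, CDH2, NEFL, NEFM, PAX2 and LIN28B had means of 230.4 to 58968 in the 3 lines. The markers PTPRC, ALB and PECAM1 of leukocytes, hepatocytes and endothelium had means of at most 3.9, UMOD of mature kidney was at 0, COL3A1 of fibroblasts had 38.6 to 106 and LRP2 of kidney tubule 3918 to 4638.

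Distal 6q holds genes with well-studied separate roles. TBP binds the TATA box at promoters, MYB is a transcription factor of blood progenitors, TCP1 is a subunit of the chaperonin that folds actin and tubulin, MTHFD1L makes formate in mitochondria for one-carbon metabolism, and DLL1 is a ligand of Notch receptors. Each has its own start site, and that of TCP1 lies close to the start of MRPL18 on the other strand. RNA-seq counts the polyadenylated RNA of each gene over a whole culture, not DNA copies, and fewer cells that express a gene and less RNA per cell cannot be told apart.

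The promoters of 4 members are shown because 3 of the genes were lower and 1 was not. They are examples picked by hand and do not represent the start sites of the segment. The sequences are the bases just before the start of the most upstream RefSeq window on GRCh38.p14, 5′ to 3′ on the strand of the gene, and capitals mark a G4 motif, 4 runs of GGG spaced by 1 to 7 bases. EPB41L2 at chr6:131063246-131063495 (minus strand) has the motif, SLC2A12 at chr6:134052625-134052874 (minus strand) has neither it nor CACGTG, the E-box of MYC, and both genes were lower in MYC MUT. TCP1 at chr6:159789603-159789811 (minus strand) is shown up to the start of MRPL18, which is transcribed the other way from 209 bases upstream, and both genes of the pair were lower. ARFGEF3 at chr6:138161689-138161938 (plus strand) has the motif and was not lower.
EPB41L2: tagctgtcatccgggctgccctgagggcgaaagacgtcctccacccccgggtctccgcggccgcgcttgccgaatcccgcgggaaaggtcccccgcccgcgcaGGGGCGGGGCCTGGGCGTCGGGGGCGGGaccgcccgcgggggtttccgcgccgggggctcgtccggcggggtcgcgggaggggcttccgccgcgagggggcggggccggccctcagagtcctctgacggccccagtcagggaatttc
SLC2A12: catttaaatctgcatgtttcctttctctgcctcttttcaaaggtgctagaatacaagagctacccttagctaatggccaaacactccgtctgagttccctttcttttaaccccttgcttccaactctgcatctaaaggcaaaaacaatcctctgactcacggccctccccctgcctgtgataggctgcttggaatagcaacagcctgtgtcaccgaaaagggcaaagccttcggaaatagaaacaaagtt
TCP1: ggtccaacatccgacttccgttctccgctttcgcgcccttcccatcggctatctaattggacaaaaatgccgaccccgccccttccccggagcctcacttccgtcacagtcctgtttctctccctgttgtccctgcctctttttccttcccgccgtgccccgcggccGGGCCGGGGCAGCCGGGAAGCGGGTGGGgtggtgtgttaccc
ARFGEF3: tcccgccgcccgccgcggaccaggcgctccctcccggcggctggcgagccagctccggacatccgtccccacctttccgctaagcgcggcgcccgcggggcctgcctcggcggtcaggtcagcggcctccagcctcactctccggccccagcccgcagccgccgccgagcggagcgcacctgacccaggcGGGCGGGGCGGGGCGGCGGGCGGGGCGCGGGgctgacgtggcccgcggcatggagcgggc

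Of the 216 members, 137 had a promoter in the RefSeq table, in windows from 250 bases before to 50 bases after each start. A G4 motif on either strand lay in a window of 52 of them (38%) and of 27.8% of all 27305 genes in the table. CACGTG, which reads the same on both strands, lay in 17 (12.4%) and in 8.77% of all genes. These sets are unlike, since members had to reach a level of RNA and genes of the table did not. Median GC content was 65.7% for the members, with 205 windows, and 58.3% for all genes, with 35116 windows. Whether the motifs differ in share from genes of matched GC content, level and window number was not tested. Among protein-coding members the G4 motif was in 42 of 104 that were lower in MYC MUT (40.4%) and in 8 of 18 that were not (44.4%). CACGTG was in 14 and 1 of these. Genes with several start sites have more than 1 window, and a match of letters says nothing on folding or binding.

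In MYC MUT against MYC WT the protein-coding genes of distal 6q were lower by a similar amount over the whole segment. Of the 134, 114 were lower and 1 was higher (limma on log2 of the normalized count plus 1, adjusted p under 0.05 over all 20884 genes tested and a log2 fold change beyond 0.5), beside 10.2% lower and 12.7% higher of all protein-coding genes tested. Their median log2 fold change was -0.80, with quartiles of -1.05 and -0.62, so that the median gene stood at 57.5% of MYC WT. Over all protein-coding genes tested the median was 0.01. In 121 of the 134 genes every MYC MUT library was below every MYC WT library, which held for 28.4% of all protein-coding genes tested. Over all 216 members 138 were lower and 5 were higher, beside 10.1% and 11.3% of all genes tested, with a median of -0.71. For 1 gene with 3 libraries against 3, an exact two-sided permutation test cannot go below 0.1, and the p-values given are those of limma.

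The 3 libraries of a line lay close together. The median over the 134 genes, relative to the mean of MYC WT, was 0.01, 0.05 and -0.03 in the MYC WT libraries, -0.80, -0.83 and -0.79 in those of MYC MUT and -0.05, -0.05 and -0.07 in those of SWP. Every MYC MUT library was thus far below every other. The SWP libraries lay just below those of MYC WT, as they did over all protein-coding genes tested (-0.06 to -0.04). The members took 0.861% ± 0.00539 (SD, n = 3) of all normalized counts in MYC WT, 0.551% ± 0.00308 in MYC MUT and 0.857% ± 0.0106 in SWP.

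**Figure D1:**
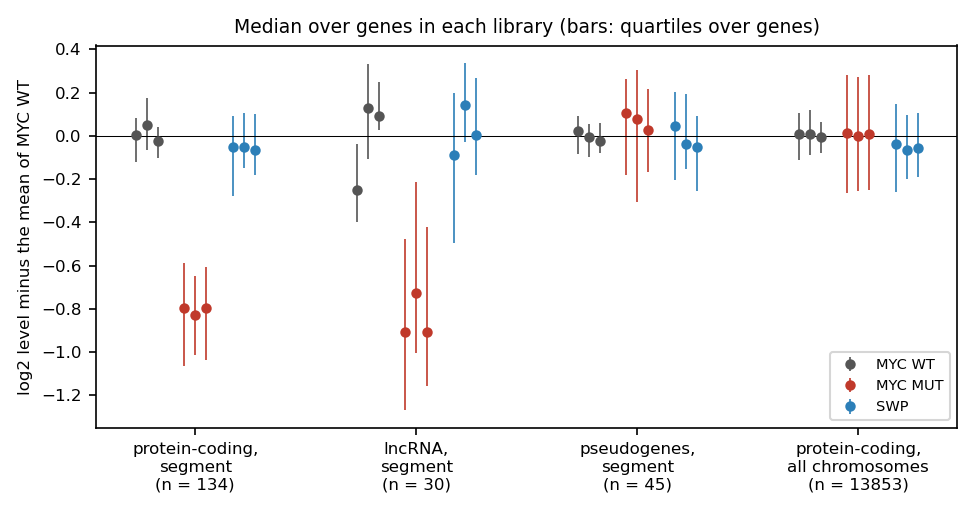
Median over genes of the log2 level relative to the mean of MYC WT (y axis) in each of the 3 libraries of MYC WT, MYC MUT and SWP, for the protein-coding, lncRNA and pseudogene members of distal 6q and for all protein-coding genes tested. Points are medians and bars the quartiles over genes; the protein-coding and lncRNA members of the segment sit at -0.91 to -0.72 in MYC MUT, and its pseudogenes at 0.02 to 0.10.

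Along the segment the lower level was present at its proximal end and reached the last genes before the telomere. In windows of 5 Mb the median of protein-coding genes was -1.06 from 130 Mb, -0.89 from 135 Mb, -0.91 from 140 Mb, -0.83 from 145 Mb, -0.79 from 150 Mb, -0.74 from 155 Mb, -0.85 from 160 Mb, -0.88 from 165 Mb and -0.75 from 170 Mb. No window of the segment stood near 0. Those from 160 and 170 Mb held only 5 genes each. The windows also include RPS12 and RPS6KA2, which the rule left out of the members. Over 466 such windows of the genome that hold at least 10 tested protein-coding genes, the 7 of distal 6q spanned -1.06 to -0.74. The others had a median of 0.02 and a 5th percentile of -0.41, and 1 of them was below the highest window of the segment. That window stood at -0.90, and 10 of the others were at or below -0.5. Among these 10 were windows of chromosome 8 that start at 55 Mb, from 80 to 95 Mb and at 115 Mb. In SWP against MYC WT the 7 windows of distal 6q spanned -0.13 to 0.05, beside -0.18 to 0.14 for the 5th to 95th percentile of the others.

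**Figure D2:**
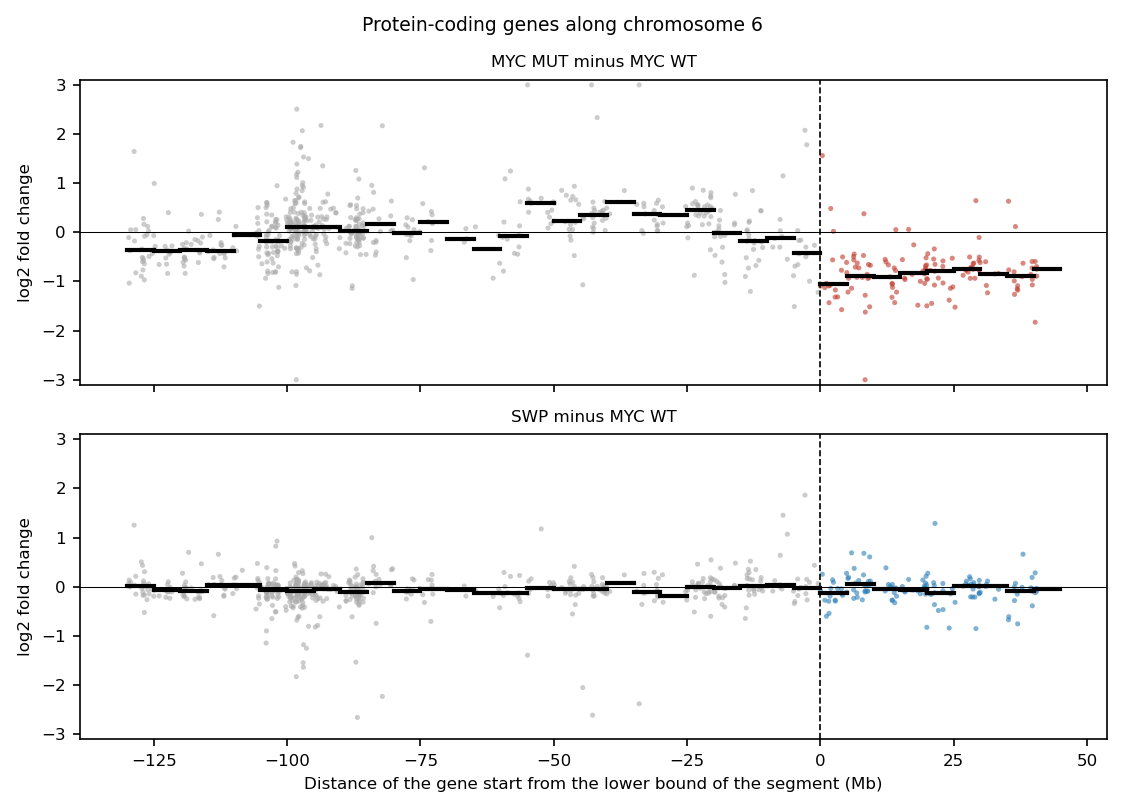
Log2 fold change (y axis) of each of 732 protein-coding genes of chromosome 6 against the distance of its start from the lower bound of the segment in Mb (x axis, dashed line at 0), in MYC MUT minus MYC WT (top) and SWP minus MYC WT (bottom). Points are genes, colored within the segment, thick lines are medians of 5 Mb windows, and 5 genes beyond 3 are drawn at the edge of the top panel; the medians right of the dashed line lie at -1.06 to -0.74 in the top panel and near 0 in the bottom panel.

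The lower bound of 130 Mb is a rule and not a measured edge, and the values on its sides are given without a test. Just inside it were L3MBTL3, a reader of methylated histones, at -1.09, TMEM200A at 1.56 and EPB41L2 at -1.13 in MYC MUT against MYC WT. Just outside were ARHGAP18, a GTPase-activating protein for RhoA, at -1.22 and the pseudogenes BMPR1AP1 at -0.17 and B3GALNT2P1 at -0.21. In the 5 Mb before the bound the protein-coding median was -0.43, with TPD52L1 at -1.51 and PTPRK at -0.99 beside HEY2 at 0.04 and CENPW at -0.16. Of its 15 genes 5 were lower and 2 were higher, RSPO3, which enhances WNT signalling, at 2.08 (adjusted p = 0.00678) and ENSG00000255330 at 1.78 (adjusted p = 8.31e-05). RSPO3 had low counts, with means of 3.77 in MYC WT, 19.4 in MYC MUT and 20.0 in SWP. It was also higher in SWP against MYC WT, at 1.86 (adjusted p = 0.0361). In the 5 Mb before that window the median was -0.12. At the bound on level, ENSG00000280184 (mean 10.0) and ENSG00000273100 (10.7) were just inside, and MAP7-AS1 (9.28) and CTAGE9 (8.98) just outside. Over the whole of chromosome 6 from 60 to 130 Mb the median of protein-coding genes was 0.19 and below 60 Mb it was -0.01, with 44 of 187 genes higher and 17 lower in the first stretch, and 42 of 409 higher and 46 lower in the second.

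The lower level was seen among weakly and strongly expressed genes. With the 134 protein-coding genes split into 4 bins from the lowest to the highest mean level, the medians were -0.72, -0.94, -0.80 and -0.75. In these bins 24 of 34, 30 of 34, 29 of 33 and 31 of 33 genes were lower. Of all protein-coding genes tested, at any level, 10.2% were lower. The pseudocount of 1 shrinks the fold change of the weakest genes, and SMIM28, at 22.2 normalized counts on average in MYC WT and 0 reads in every MYC MUT library, was at least 7.74-fold lower against a floor of 3 reads per library. A fold change beyond 1 on the log2 scale in the lower direction was seen in 38 of the 134, beside 369 of all 13853 protein-coding genes tested. RNA of the weakest genes gives the least precise values, since few reads stand behind them.

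Of genes of transcription and chromatin 15 of 16 members were lower in MYC MUT, with a median of -0.76. This stands beside 114 of the 134 protein-coding members and 10.2% of all protein-coding genes tested. Those shares apply to each role list below, and the lists are too short to be ranked. EYA4, a phosphatase and transcriptional coactivator, had 3741, 3980.2 and 3791 in MYC WT, 1569, 1562 and 1497 in MYC MUT and 3706, 3892 and 3628 in SWP. Its log2 fold change in MYC MUT against MYC WT was -1.31 ± 0.06 (SE, adjusted p = 2.61e-07), with MYC MUT far below both other lines and SWP overlapping MYC WT. PLAGL1, an imprinted zinc finger factor, had 5197, 5358 and 4826 in MYC WT, 1949.5, 1972 and 1785 in MYC MUT and 4229.8, 4075 and 3961 in SWP, with -1.43 ± 0.07 (SE, adjusted p = 2.72e-07) in MYC MUT. MYB had 774, 941 and 718 in MYC WT, 303, 356 and 385 in MYC MUT and 646, 1109 and 1039 in SWP, and here the SWP libraries spread around MYC WT. The difference of MYB was -1.22 ± 0.19 (SE, adjusted p = 0.000515) in MYC MUT and 0.17 ± 0.19 (SE, adjusted p = 0.652) in SWP.

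Parts of the general transcription machinery were among them. TBP had 2829, 2547 and 2923 in MYC WT, 1657, 1676 and 1601 in MYC MUT and 2761, 2719.8 and 2514 in SWP, and it was lower in MYC MUT at -0.75 ± 0.07 (SE, adjusted p = 2.61e-05). Its relative TBPL1 was at -0.77 (adjusted p = 6.37e-05) and the Mediator subunit MED23 at -1.09 (adjusted p = 3.51e-06). Of SWI/SNF chromatin remodelers, ARID1B was at -0.87 (adjusted p = 4.73e-05) and PHF10 at -0.59 (adjusted p = 0.000261). SCAF8, which binds the tail of RNA polymerase II, was just past the fold threshold at -0.53 (adjusted p = 0.00045) and under it with equal totals, equal upper quartiles or without MYC MUT replicate 2. The zinc finger factor ZBTB2 was the member that did not pass, at -0.34 (adjusted p = 0.12).

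In RNA and protein synthesis 17 of 17 members were lower in MYC MUT, with a median of -0.78. TCP1 had 57149, 42367 and 48101 in MYC WT, 30596, 27577 and 28171 in MYC MUT and 50318, 41824 and 42338 in SWP, and its MYC MUT libraries were all below those of the other lines. MRPL18, a protein of the mitochondrial ribosome that starts from the same stretch of sequence in the other direction, had 9578, 7776 and 8733 in MYC WT, 5179, 5008 and 5145 in MYC MUT and 8290.04, 7564 and 7736 in SWP. The pair differed between MYC MUT and MYC WT by -0.76 (adjusted p = 0.000292) and -0.76 (adjusted p = 3.21e-05). TFB1M, which methylates mitochondrial ribosomal RNA, had 2617, 3242 and 2978 in MYC WT, 1039.9, 1021 and 1001 in MYC MUT and 2062, 2615 and 2422 in SWP and was among the largest falls of the segment, at -1.52 ± 0.10 (SE, adjusted p = 1.97e-06). The tRNA deaminase subunit ADAT2 was at -1.32 (adjusted p = 4.4e-07), the ribosome rescue factor HBS1L at -0.82 (adjusted p = 4.04e-06), the RNA-binding protein QKI at -0.84 (adjusted p = 2.92e-06) and the proteasome subunit PSMB1 at -0.70 (adjusted p = 2.82e-05). BCLAF1 had the smallest fall of the list at -0.56 (adjusted p = 0.0106), and it was under the fold threshold with equal totals and without MYC WT replicate 1.

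Of metabolism and organelles 13 of 15 members were lower, with a median of -0.99. MTHFD1L had 11441, 14330.5 and 13852 in MYC WT, 4565, 4593 and 5351 in MYC MUT and 11135, 11546 and 12892 in SWP. It was lower in MYC MUT at -1.45 ± 0.10 (SE, adjusted p = 2.34e-06). SLC2A12, a facilitative glucose transporter whose promoter is printed above, had 1056, 2059.7 and 1431 in MYC WT, 373, 557 and 565 in MYC MUT and 833, 1683 and 1651 in SWP, with a wide spread in MYC WT and SWP and no overlap with MYC MUT. Its log2 fold change was -1.57 ± 0.29 (SE, adjusted p = 0.00163). The mitochondrial pyruvate carrier subunit MPC1 was at -0.99 (adjusted p = 2.65e-06) and the lysosomal fucosidase FUCA2 at -1.05 (adjusted p = 1.32e-06).

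The 2 others of this list did not pass the test, ACAT2 and ALDH8A1. ACAT2, a cytosolic thiolase that serves sterol synthesis, had 10777, 8738 and 12272 in MYC WT, 8195, 10770.2 and 10528 in MYC MUT and 10730.3, 10141 and 11156 in SWP, with overlapping groups and a difference of -0.10 (adjusted p = 0.551). ALDH8A1 had 38.9 normalized counts on average in MYC WT and 24.6 in MYC MUT, at -0.61 (adjusted p = 0.0547). SOD2, also on the list, could not be matched to a tested identifier and is given no value.

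Of signalling genes 16 of 17 members were lower in MYC MUT, with a median of -0.76. DLL1 had 1759, 2221 and 1912 in MYC WT, 502, 571 and 579 in MYC MUT and 1729, 2689 and 2891 in SWP. Its fall of -1.83 ± 0.17 (SE, adjusted p = 1.52e-05) was the largest among called members with a mean of at least 50, and SWP stood 2.11 above MYC MUT on the log2 scale. SASH1, a scaffold of Toll-like receptor signalling, was at -1.48 (adjusted p = 5.79e-06) and RGS17, which switches off G proteins, at -1.03 (adjusted p = 2.37e-05). Of kinases and their partners, TAB2 of the TAK1 complex was at -0.79 (adjusted p = 1.49e-05) and the Hippo kinase LATS1 at -0.76 (adjusted p = 0.000278). The interferon gamma receptor IFNGR1 was at -0.72 (adjusted p = 0.000129) and IGF2R, which carries mannose 6-phosphate proteins to lysosomes, at -0.62 (adjusted p = 0.00113).

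SGK1, a kinase induced by serum and glucocorticoids, sat on the fold threshold at -0.50 (adjusted p = 0.0091) and was under it with edgeR, DESeq2, equal totals, equal upper quartiles and a pseudocount of 10, and without MYC WT replicate 1 or MYC MUT replicate 3. The matrix-associated factor CCN2 did not pass. It had 232, 195 and 167 in MYC WT and 495, 211 and 199 in MYC MUT, so that 1 MYC MUT library was high and the others overlapped MYC WT, with a difference of 0.48 (adjusted p = 0.215).

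Among genes of the cytoskeleton, matrix and cilia 12 of 15 members were lower, with a median of -0.93. EPB41L2, which links the spectrin skeleton to the membrane, had 17348, 18733 and 17598 in MYC WT, 8210.5, 8267 and 8108 in MYC MUT and 14411, 14732 and 15225 in SWP. MYC MUT stood at 45.8% of MYC WT with -1.13 ± 0.06 (SE, adjusted p = 3.2e-07), and SWP at 82.7% with -0.27 ± 0.06 (SE, adjusted p = 0.0117), so the order was MYC WT, SWP and MYC MUT without overlap. NHSL1, a regulator of cell migration, had 1684, 4539 and 3468 in MYC WT, 827, 945 and 1158 in MYC MUT and 1945, 3332 and 4199 in SWP, and its fall of -1.62 ± 0.34 (SE, adjusted p = 0.00323) had a wide spread in MYC WT. Utrophin (UTRN) was at -1.22 (adjusted p = 0.000101) and ezrin (EZR), which joins actin to the membrane, at -0.62 (adjusted p = 4.53e-05). PERP and MAP7 had adjusted p under 0.05 with fold changes under the threshold, at -0.47 (adjusted p = 7.73e-05) and -0.44 (adjusted p = 0.00833). TXLNB, a taxilin of muscle outside the lists, had 71.8, 158 and 115 in MYC WT, 38.8, 35 and 39 in MYC MUT and 92.8, 247 and 203 in SWP and -1.52 ± 0.35 (SE, adjusted p = 0.00563).

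**Figure D3:**
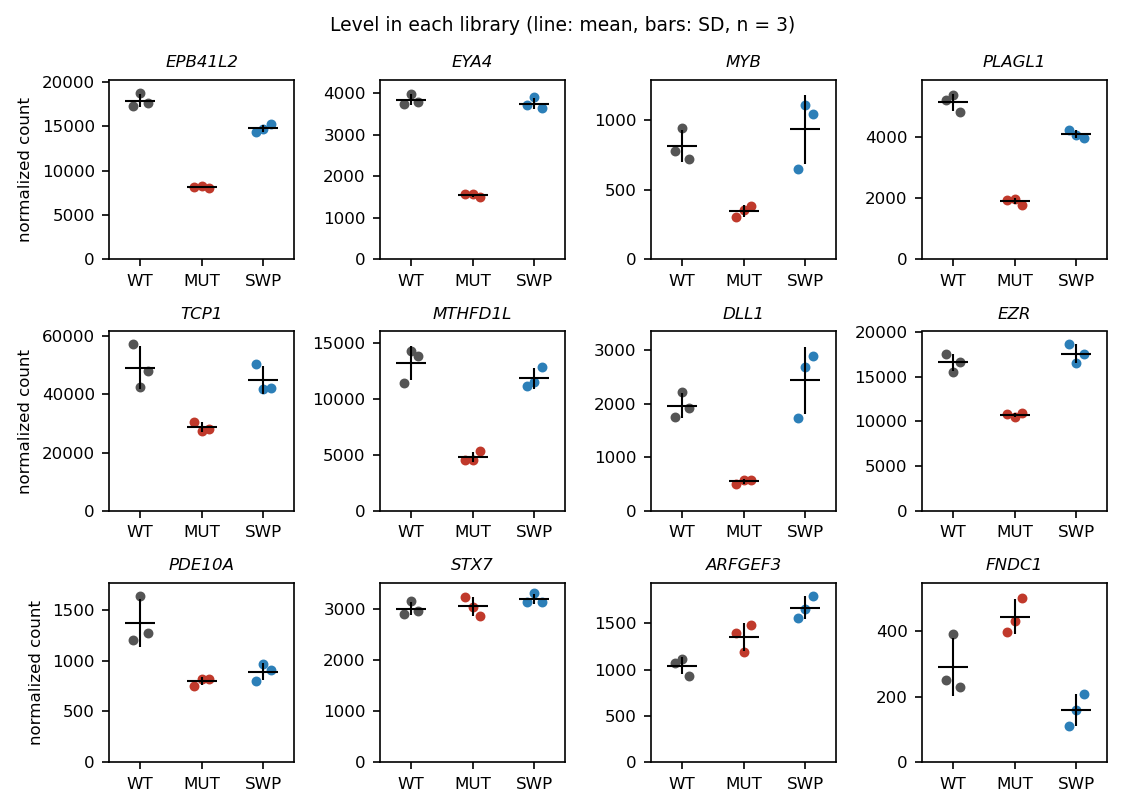
Normalized count (y axis, from 0) in each of the 3 libraries of MYC WT, MYC MUT and SWP for 12 members; lines are means and bars the SD. In EPB41L2, EYA4, MYB, PLAGL1, TCP1, MTHFD1L, DLL1 and EZR the MYC MUT libraries lie below all others; PDE10A was low in both edited lines, STX7 was level in all 3, ARFGEF3 was highest in SWP, and FNDC1 had 112, 161 and 209.9 in SWP.

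Among genes of membrane traffic 8 of 12 members were lower in MYC MUT and 4 were called in neither direction, with a median of -0.59. SLC18B1, a vesicular transporter of polyamines, was at -1.32 (adjusted p = 1.98e-06) and the endocytic adaptor REPS1 at -0.94 (adjusted p = 1.23e-06). STX7, a syntaxin of late endosomes, had 2904, 3149.6 and 2952 in MYC WT, 3229.8, 3045 and 2865 in MYC MUT and 3141, 3315 and 3129 in SWP, which overlap, with a difference of 0.02 ± 0.07 (SE, adjusted p = 0.84) in MYC MUT. It lies at chr6:132445867-132513198, and its protein-coding neighbours among the members, MOXD1 at -0.56 (adjusted p = 0.00605) and SLC18B1, were lower. RAB32, a GTPase of lysosome-related organelles, had 1052, 932 and 993 in MYC WT, 1045, 1009 and 1045 in MYC MUT and 1055, 1152 and 1089.8 in SWP and 0.06 (adjusted p = 0.579). STX11, which has a role in granule release, was at 0.05 (adjusted p = 0.859).

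ARFGEF3 had 1076, 1109 and 936 in MYC WT, 1398, 1188 and 1477 in MYC MUT and 1552, 1649 and 1798 in SWP. It was at 0.38 ± 0.10 (SE, adjusted p = 0.0143) in MYC MUT, under the fold threshold and in the direction opposite to the segment, and at 0.68 ± 0.10 (SE, adjusted p = 0.00188) in SWP, past it. PERP and SMIM28, described with the cytoskeleton and with the weakest genes, are its protein-coding neighbours among the members. The promoter printed above holds a G4 motif in ARFGEF3 as in EPB41L2, whose values went the other way.

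The NKG2D ligands form a gene cluster in the segment, and their proteins mark stressed cells for natural killer cells. All 4 measured were lower in MYC MUT, with a median of -0.95. ULBP3 was at -0.96 (adjusted p = 9.53e-05), ULBP2 at -0.94 (adjusted p = 0.000861) and RAET1G at -0.66 (adjusted p = 0.0166), which did not pass without MYC MUT replicate 2. ULBP1 had 229.6, 878 and 704 in MYC WT, 124, 233 and 216 in MYC MUT and 162, 383 and 411 in SWP with overlap, and its -1.50 (adjusted p = 0.0301) no longer passed without MYC WT replicate 2 or 3 or MYC MUT replicate 1 or 3. These genes are close copies, and the counting could split reads between them. On the short list for the cell cycle, FBXO5, which inhibits the anaphase-promoting complex, was lower at -0.69 (adjusted p = 1.02e-05). MTFR2, placed on that list but named for mitochondrial fission, at -0.49 (adjusted p = 0.00117) and KIF25 at -0.63 (adjusted p = 0.171) did not pass.

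**Figure D4:**
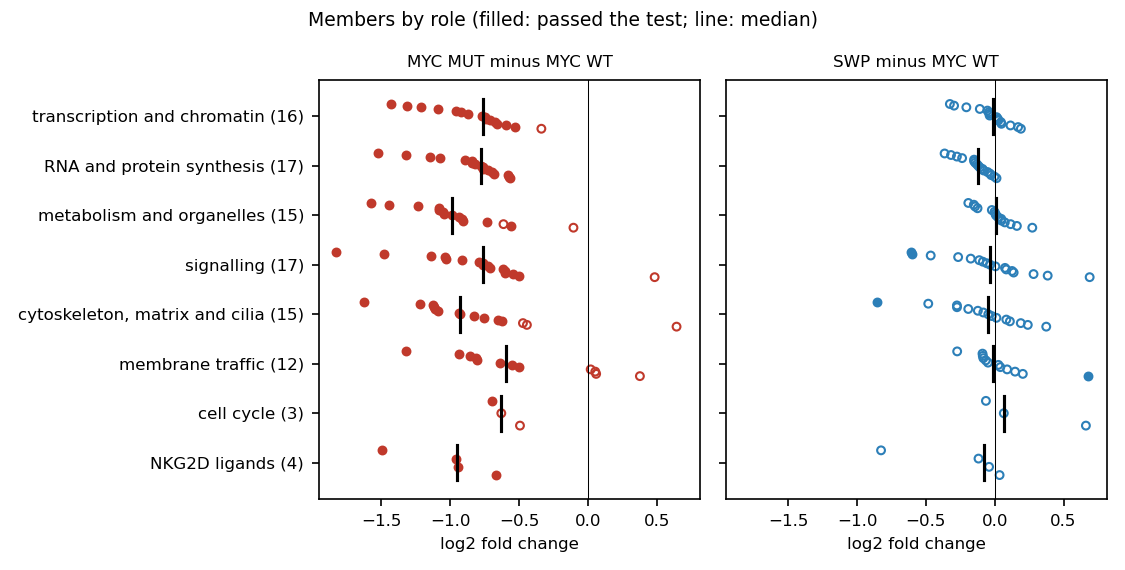
Log2 fold change (x axis) of the members of 8 role lists (rows, number of members in brackets) in MYC MUT minus MYC WT (left) and SWP minus MYC WT (right). Filled points passed the test, open points did not, and black lines are medians, which lie between -0.99 and -0.59 on the left and between -0.12 and 0.07 on the right.

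Few pseudogenes of the segment were lower in MYC MUT. Of 45, 4 were lower and 3 higher, close to the 8.63% lower and 4.92% higher of all pseudogenes tested. Their median was 0.06, beside a median of -0.03 over all 4069 pseudogenes tested. Most are processed pseudogenes, copies of the spliced RNA of a gene elsewhere, and reads of the source gene can be assigned to them, so their values are uncertain. For 25 of them the source gene, taken from the symbol, lay outside the segment and was tested. The log2 fold changes of pseudogene and source gene had the same sign in 20 of 25 pairs, with Pearson's r of 0.75 and Spearman's rho of 0.75 across pairs, which share libraries and are not independent. TPT1P4 was at -0.62 and TPT1 on chromosome 13 at -0.62. PARLP2 had 682, 651 and 651 in MYC WT and 1032, 1019.8 and 969 in MYC MUT, and it was at 0.61 where PARL on chromosome 3 was at 0.72. AMZ2P2 was at 0.81 with AMZ2 near level at 0.01, which have the same sign but unlike size. GNG5P1 at 0.20 and GNG5 at -0.59 were among the pairs of opposite sign.

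The reverse was seen outside the segment. For 11 tested pseudogenes elsewhere whose source gene is a member, all 11 had the sign of their source gene in MYC MUT. Of the 11 pseudogenes 5 were lower and none was higher, with medians of -0.57 for pseudogenes and -0.59 for source genes. TCP1 and BCLAF1 each recur as source genes and all pairs share libraries, so the pairs are not independent. TCP1P1 on chromosome 7 was at -0.57 and TCP1P3 on chromosome 12 at -0.66, beside -0.76 for TCP1. PHF10P1 on chromosome X was at -0.82 and RGS17P1 on chromosome 13 at -0.88, beside -0.59 and -1.03 for their source genes. In SWP against MYC WT 0 pseudogenes of the segment passed the test with limma, where 8 had an unadjusted p under 0.05, and edgeR called 0 higher and 0 lower and DESeq2 0 and 0. The part of shared reads in these values was not tested.

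**Figure D5:**
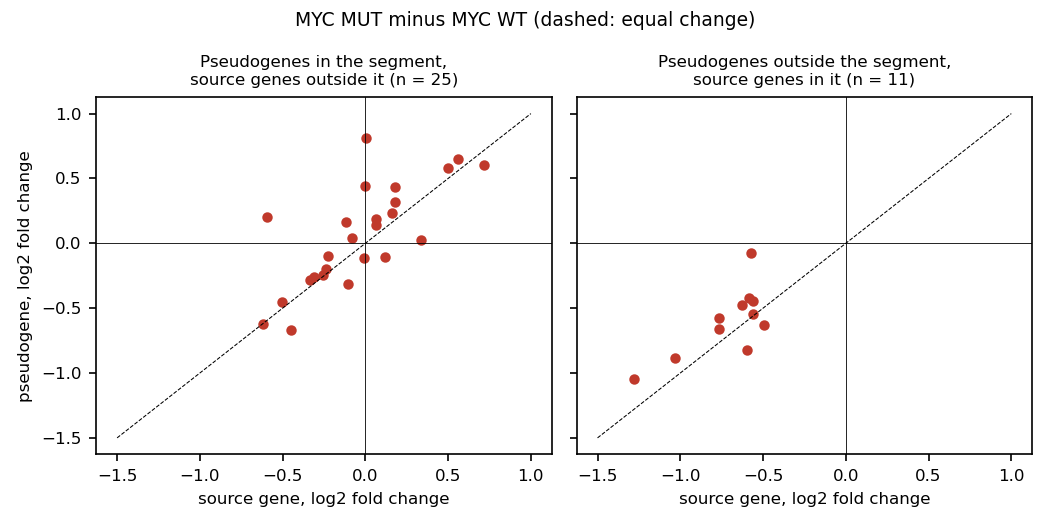
Log2 fold change in MYC MUT minus MYC WT of pseudogenes (y axis) against that of their source genes (x axis), for 25 pseudogenes in the segment with a source gene outside it (left) and 11 pseudogenes outside with a source gene in the segment (right). The dashed line marks equal change; points on the left scatter around 0 along the line, and all on the right lie below 0 on both axes.

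The lncRNA genes were mostly lower too. Of 30, 17 were lower and 1 was higher in MYC MUT, beside 11.7% lower and 14.7% higher of all lncRNA genes tested. Their median was -0.92 beside -0.02 over all 2549 tested. For 7 of them the symbol names a member that they start beside or overlap. MPC1-DT was at -1.27 beside -0.99 for MPC1, AFDN-DT at -1.16 beside -0.90 for AFDN, and MAP3K4-AS1 at -0.57 beside -0.60 for MAP3K4. The 7 partners were all lower, and of the lncRNA genes 6 were, TMEM242-DT at -0.42 (adjusted p = 0.251) being the exception. The libraries kept strand, but whether the counting used it is not stated, so the reads of genes that overlap on opposite strands, as 66 of the 216 members do with another member, may not be told apart.

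The members called higher in MYC MUT mostly had low counts. TMEM200A, a membrane protein, had 5.13, 13.5 and 10.6 in MYC WT, 23.1, 32.1 and 32.1 in MYC MUT and 4.58, 18.6 and 15 in SWP and 1.56 ± 0.47 (SE, adjusted p = 0.0221), which did not pass without MYC WT replicate 1 or MYC MUT replicate 2 or 3. LINC00242 had 40.0, 29.2 and 32.7 in MYC WT, 64.7, 72.9 and 54.6 in MYC MUT and 44.7, 34.2 and 31.1 in SWP and 0.90 (adjusted p = 0.00657), and the pseudogene LPAL2 8.2, 7.86 and 15.4 in MYC WT, 37.9, 21.4 and 27.3 in MYC MUT and 16, 4.46 and 4.61 in SWP and 1.40 (adjusted p = 0.0312). With PARLP2 and AMZ2P2 these were the 5 members called higher, and the names LINC00242 and LPAL2 were added after their values were seen. A fit with the replicate number as a block called 9 members higher. FNDC1, an extracellular matrix protein, had 250.1, 393 and 229 in MYC WT, 397, 433 and 502 in MYC MUT and 112, 161 and 209.9 in SWP, and its 0.64 (adjusted p = 0.0536) missed the threshold, which it passed with edgeR and DESeq2.

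SWP, which was compared with the same MYC WT libraries, differed little from them along the segment. Of 216 members 2 were higher and 3 lower, beside 2.15% higher and 2.98% lower of all genes tested, and the median was -0.04 beside -0.06. All 5 were protein-coding, where 2.61% of all genes tested were higher and 3.86% lower, so the counts of the segment lay near or under those of the rest of the genome. The quartiles of the 134 protein-coding members were -0.14 and 0.06. Both comparisons use the MYC WT libraries, and their values are set side by side without a correlation.

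The 5 genes that differed in SWP did so in both directions. AKAP7, which anchors protein kinase A, had 870.3, 1203 and 909.7 in MYC WT, 452, 496 and 489 in MYC MUT and 627, 695 and 627 in SWP, with -0.60 ± 0.12 (SE, adjusted p = 0.00975) in SWP, -1.04 (adjusted p = 7.67e-05) in MYC MUT and 0.44 (adjusted p = 0.015) in SWP against MYC MUT. PDE10A, a cyclic nucleotide phosphodiesterase, had 1199, 1633 and 1266 in MYC WT, 752, 817 and 822 in MYC MUT and 799.7, 961 and 906 in SWP, so that both edited lines were below MYC WT. Its differences were -0.61 ± 0.12 (SE, adjusted p = 0.00808) in SWP, -0.76 (adjusted p = 0.000528) in MYC MUT and 0.15 (adjusted p = 0.336) between the edited lines. FNDC1 was lower in SWP at -0.85 (adjusted p = 0.0466), a call that edgeR, other scalings and leaving out any of several libraries ended. Higher in SWP were ARFGEF3 and CCDC170, the second at 9.23, 12.3 and 9.63 in MYC WT, 5.55, 4.86 and 8.77 in MYC MUT and 24.1, 25.3 and 31.1 in SWP with 1.29 ± 0.29 (SE, adjusted p = 0.0158), which did not pass without MYC WT replicate 3 or SWP replicate 3. Without MYC WT replicate 2, which was the highest MYC WT library in AKAP7, PDE10A and FNDC1, 0 of the 216 were called lower by limma, with 20 lower at an unadjusted p under 0.05, AKAP7 at -0.45 and PDE10A at -0.47. With all libraries edgeR called 2 lower and DESeq2 3, and with limma without MYC WT replicate 1 the count was 7. Without SWP replicate 1 the members called higher numbered 5. With the replicate number as a block 5 members were lower in SWP, AKAP7, PDE10A and FNDC1 together with ULBP1 at -0.83 (adjusted p = 0.00433, against 0.341 without it) and IPCEF1 at -0.84 (adjusted p = 0.0232, against 0.143). Other members moved by less than the fold threshold, such as PLAGL1 at -0.33 (adjusted p = 0.013) and RGS17 at -0.46 (adjusted p = 0.014).

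SWP against MYC MUT sets side by side 2 edited lines whose library names both lack the pool of MYC WT. Since it shares MYC MUT with the first comparison, it is no separate evidence of the fall. Of 216 members 127 were higher in SWP and 9 lower, beside 8.31% and 12.3% of all genes tested, and the median was 0.69 beside -0.04. Of the 134 protein-coding members 106 were higher and 3 lower, beside 8.45% and 14.3%, with a median of 0.77. In 117 of them all SWP libraries were above all MYC MUT libraries, which held for 25.2% of all protein-coding genes tested. The 5 largest rises at a mean of at least 50 were those of TXLNB at 2.12 (adjusted p = 0.000716), DLL1 at 2.11 (adjusted p = 4.05e-06), NHSL1 at 1.64 (adjusted p = 0.00306), SLC2A12 at 1.43 (adjusted p = 0.00287) and SASH1 at 1.40 (adjusted p = 5.82e-06). Called lower at that level were FNDC1 at -1.50 (adjusted p = 0.000596) and the pseudogenes AMZ2P2 at -0.85 (adjusted p = 0.00758), PARLP2 at -0.52 (adjusted p = 0.000416) and PDCL3P5 at -0.51 (adjusted p = 0.0163), the last 2 of which were under the fold threshold with edgeR and DESeq2.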

How the data were processed

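RNA-seq of 9 of the 213 listed samples was used, and other assays were not used here. Per the labels and methods, the authors made strand-specific poly(A) libraries, aligned them to hg38 with bwa mem (BWA 0.7.17-r2188 in the submitters' processing notes), which does not split reads over introns, and marked duplicates. Genes were those of GENCODE 42; counting tool and strand setting are not given in the sources used here. The deposited values are a signal, counts divided by the authors' DESeq2 size factors. All (100%) were whole reads within 0.01 after rescaling, and these reads went into edgeR 4.0.16 and DESeq2 1.42.0 as alternatives.

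The test was limma 3.58.1 in R 4.3.3 (trended eBayes) on log2(normalized count + 1). All 9 libraries were fitted together, and p-values were adjusted by Benjamini-Hochberg over the 20884 genes averaging 10 or more. Fold changes are on that scale, and calls needed both adjusted p below 0.05 and more than 0.5 on it. Fits were tested on simulated data. Positions came from GENCODE 44, which lacked 141 tested identifiers, and promoters from RefSeq.

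The members and lists were chosen with earlier results of these data known. The text names role-list members, the 5 largest called rises and falls per comparison (mean of at least 50, no overlap), calls against the segment's direction at that level, genes at the bounds, and MYC. Other genes were named after their values were seen: SMIM28, CCDC170, MOXD1, IPCEF1, genes before the bound, and the pseudogene and lncRNA pairs. Labels number the libraries as biological replicates without saying how cultures were separated, so p-values measure the spread between these libraries. Deviations of same-numbered libraries from their line means correlated at 0.102 to 0.555 for MYC WT with SWP, 0.232 to 0.333 for MYC MUT with SWP and 0.049 to 0.328 for MYC WT with MYC MUT. With every pair over 0.1 taken as the rule, the numbers paired the first and second, not the third. That cut lies next to the 0.102 of 1 pair. Libraries of different numbers correlated at -0.477 to 0.263 with a median of -0.188. Those of the same number were all above 0, with a median of 0.241. The rule therefore does not settle which lines were paired. The pairing comes from the values, since the labels name no shared day or batch. No library repeated another (chi-square per degree of freedom at least 9.00).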

Additional observations from a re-analysis of the deposited data

How the results depend on the processing

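In MYC MUT against MYC WT the median over members was -0.64 with equal totals, -0.68 with equal upper quartiles, -0.67 with a pseudocount of 10, -0.75 at a minimum mean of 50, -0.43 over all segment genes with a read, -0.67 with the bound moved 5 Mb toward the centromere, -0.75 from 150 Mb and -0.80 over protein-coding members. Members called higher numbered 8 with equal totals, 8 without a fold threshold, 2 at a mean of 50, 2 beyond a log2 fold change of 1, 3 from 150 Mb and 1 among protein-coding genes. Called lower were 51 beyond 1 and 69 from 150 Mb. Equal totals moved the median of all genes tested to 0.07.

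In SWP against MYC WT the median was 0.00537 with equal totals, -0.0111 with equal upper quartiles, 0.000105 with edgeR and -0.00133 with DESeq2. Called higher were 5 without a fold threshold and 1 at a mean of 50, beyond 1, from 140 Mb or from 150 Mb. Called lower were 10 without a fold threshold and 0 beyond 1. In SWP against MYC MUT the median was 0.74 with DESeq2, 0.73 with edgeR, 0.66 with equal totals, 0.65 with a pseudocount of 10, 0.37 over all segment genes with a read, 0.65 with the moved bound and 0.77 over protein-coding members. Called higher were 38 beyond 1 and 65 from 150 Mb, and lower 5 with DESeq2, 4 at a mean of 50 or beyond 1 and 3 among protein-coding genes. Settings that drop or add genes change the counts by construction, and for the others the cause was not tested.

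Leaving out each library in turn gave 3 to 7 members higher, 122 to 138 lower and medians of -0.73 to -0.70 in MYC MUT against MYC WT, 1 to 5 higher, 0 to 7 lower and -0.05 to -0.03 in SWP against MYC WT, and 119 to 129 higher, 6 to 9 lower and 0.66 to 0.71 in SWP against MYC MUT. The sign of genes near 0 in MYC MUT turned for ACAT2 (0.0211 without MYC MUT replicate 1, 0.00798 without MYC WT replicate 3), STX7 (-0.0226 without MYC MUT replicate 1, -0.00314 without MYC WT replicate 1) and STX11 (-0.00949 without MYC MUT replicate 2), within ranges of -0.24 to 0.0211, -0.0226 to 0.0638 and -0.00949 to 0.10. Over named genes and alternatives 1750 values kept sign and side of the threshold, 82 lost a call and 28 gained one.

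With the replicate number as a block, 9 members were higher in MYC MUT and 5 lower in SWP, both against MYC WT, and no other count of calls moved beyond the margin set for counts. For MYC MUT against MYC WT the numbers did not pair the libraries by the rule used, which leaves their pairing unsettled. Over the lines, 7 of 9 libraries correlated best with one of their own number, a hint from the data and not from the design. With 3 libraries a line, the spread of each gene is known poorly, and genes near 10 counts most of all.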

Other observations

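The 5 genes that the rule left out by their symbols lie in the same segment. RPS12, a protein of the small ribosomal subunit, had 25861, 32174 and 29288 in MYC WT, 12291, 12332 and 14029.6 in MYC MUT and 20780.1, 24549 and 26075 in SWP, at -1.17 (adjusted p = 1.09e-05) with limma in MYC MUT against MYC WT. RPS6KA2, a kinase of the RSK family and no ribosomal protein, had 1882, 4515 and 2952 in MYC WT, 1039.9, 1237 and 1409 in MYC MUT and 1594, 2804 and 3128 in SWP and -1.26 (adjusted p = 0.00658). The pseudogenes RPL32P16, RPS4XP8 and RPS18P9 were at -0.11, -0.29 and -0.05 and did not pass, as most pseudogenes of the segment.

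Elsewhere on chromosome 6, protein-coding medians in MYC MUT against MYC WT were also taken in 5 Mb windows. Over the first 20 Mb of the short arm they were -0.36, -0.37, -0.36 and -0.37, in the direction of distal 6q and smaller. The next windows were at -0.05 from 20 Mb and -0.17 from 25 Mb. Windows of the long arm went the other way, at 0.59 from 75 Mb, 0.23 from 80 Mb, 0.35 from 85 Mb, 0.37 from 95 Mb and 0.46 in the window that starts 10 Mb further, where 11 of 28 genes were higher and 1 was lower. These values come from the same comparison and fit as those of the segment, and the windows were picked after they were seen.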
